A study of Homo sapiens with 25 samples.

Results

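The MCM helicase family is described here in 10 genes, MCM2 to MCM10 and MCMBP, chosen by name out of 59427 gene names measured. They were chosen because earlier results of these data had shown a sharp loss of MCM6 with one antisense oligonucleotide (ASO), candidate 240 ASO3. The values of that ASO against control are therefore given as a description, with no test. RNA was sequenced from 2 established human lung cancer cell lines, A549 (an adenocarcinoma) and NCI-H460 (a large cell carcinoma), collected 24 h after an ASO was transfected at 25 nM. An ASO is a short, chemically modified strand that binds a complementary RNA and can lead to its cleavage. In each line 1 group received ASO3 and 1 group ASO1 against the long noncoding RNA candidate 240 (also labelled CHiLL2), and 2 groups received ASO3 or ASO5 against candidate 42 (CHiLL1). The last group received a neutral control ASO, and no untransfected cells were analysed here. Each of the 5 groups has 3 libraries in A549, replicates 3, 4 and 5, and 2 in NCI-H460, replicates 1 and 2. Whether a group's libraries come from separate cultures is not stated in the labels, so p-values measure only the spread between these libraries, which may be technical.

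MCM2 to MCM7 are related ATPases that assemble into a ring, the motor of the helicase that unwinds DNA at replication forks. The ring is loaded onto origins as an inactive double hexamer in G1 and is switched on in S phase when CDC45 and the GINS complex join it. MCM10 acts in that switch, MCMBP binds free MCM subunits and helps to build and protect the ring, and MCM8 and MCM9 form a separate helicase that works in homologous recombination. Most of these genes are E2F targets, induced as cells pass from G1 into S phase.

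All 10 members had a mean of at least 1 TPM (the deposited level, which corrects for transcript length) in both lines and entered every fit. MCM6 occupies chromosome 2, positions 135839626 to 135876443 of hg38, minus strand, per the authors' deposited table, and no other annotated gene overlaps it in GENCODE 29. MCM7 lies on chromosome 7 and hosts 3 annotated miRNA genes, MIR25, MIR93 and MIR106B, on its own strand. On the opposite strand TPRA1 overlaps MCM2, AP4M1 overlaps MCM7, MCM8-AS1 overlaps MCM8 and ASF1A overlaps MCM9. The sources used here do not state how strand was handled, so reads from bases transcribed in both genes of a pair may not be told apart. The overlaps are of whole gene spans, and shared exons were not examined.

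The promoters of 4 ring subunits, MCM6, MCM2, MCM3 and MCM7, are shown because each holds E2F-type letters. Whether these letters bear on the levels described below was not tested. RefSeq (GRCh38.p14) gave the window from 250 bases before to 50 bases after the start for 8 of the 10 members. MCM4 and MCM5 had no entry. Capitals mark TTTCCCGC, TTTCGCGC, TTTGCCGC or TTTGGCGC read on either strand. The windows are chr2:135876394-135876693 (minus strand) for MCM6, chr3:127598161-127598460 (plus) for MCM2, chr6:52284693-52284992 (minus) for MCM3 and chr7:100101348-100101647 (minus) for the first of 3 MCM7 starts.
MCM6: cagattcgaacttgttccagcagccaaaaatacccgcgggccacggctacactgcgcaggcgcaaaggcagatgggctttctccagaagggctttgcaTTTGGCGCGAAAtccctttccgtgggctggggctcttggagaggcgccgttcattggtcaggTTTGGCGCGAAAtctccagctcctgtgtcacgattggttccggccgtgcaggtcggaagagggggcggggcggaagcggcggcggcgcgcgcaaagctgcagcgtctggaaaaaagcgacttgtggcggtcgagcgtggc
MCM2: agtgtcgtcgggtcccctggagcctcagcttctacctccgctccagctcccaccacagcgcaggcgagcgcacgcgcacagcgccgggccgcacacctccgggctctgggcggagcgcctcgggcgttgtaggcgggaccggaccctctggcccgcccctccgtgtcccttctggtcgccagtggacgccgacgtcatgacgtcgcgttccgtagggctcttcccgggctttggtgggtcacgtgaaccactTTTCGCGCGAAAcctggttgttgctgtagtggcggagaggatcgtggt
MCM3: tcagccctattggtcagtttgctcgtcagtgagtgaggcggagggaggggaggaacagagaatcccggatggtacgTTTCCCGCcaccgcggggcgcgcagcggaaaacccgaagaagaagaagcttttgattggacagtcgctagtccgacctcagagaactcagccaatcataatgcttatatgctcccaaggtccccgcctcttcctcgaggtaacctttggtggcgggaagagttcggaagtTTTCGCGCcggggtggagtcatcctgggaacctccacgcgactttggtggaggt
MCM7: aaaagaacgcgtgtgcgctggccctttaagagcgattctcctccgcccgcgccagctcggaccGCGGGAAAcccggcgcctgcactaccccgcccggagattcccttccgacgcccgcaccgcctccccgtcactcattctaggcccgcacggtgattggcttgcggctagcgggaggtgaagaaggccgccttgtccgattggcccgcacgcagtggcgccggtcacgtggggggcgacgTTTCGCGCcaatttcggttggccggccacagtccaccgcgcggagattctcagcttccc
MCM6 holds 4 matches at 2 places, since a match on each strand overlaps at each place, beginning at positions -152 and -90 from the start. MCM2 holds 2 overlapping matches at 1 place, just after its start. MCM3 and the first MCM7 start hold 2 separate matches each, with one of them within 10 bases of the start, and the other 2 MCM7 starts hold none. MCM8 and the second MCMBP start hold 1 match each, and the first MCMBP start, MCM9 and MCM10 hold none. Such a match is found in 3.31% of 35116 RefSeq promoters of the same length. The letters CCAAT, on either strand, occur 2 times in the MCM6 window and 3 times in each of MCM3 and MCM7, but not in that of MCM2, against 34.6% of all promoters with a match. These are matches of letters, and binding was not measured.

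The libraries held 23879 to 27731 gene names with a value above 0, and TPM does not show their depth. Of 6 epithelial markers, 6 had a mean of at least 1 TPM in A549 and 4 in NCI-H460, where CDH1 reached at most 0.403 TPM. None of 4 endothelial markers did in either line, while 2 of 6 leukocyte markers did in both lines, as did 1 of 6 fibroblast markers in A549 and 3 of them in NCI-H460. Those of leukocytes were CD68 (19.6 to 77.4 TPM in A549 and 19.1 to 44 in NCI-H460) and CD14 (6.7 to 22.8 and 10.2 to 29.2), and PTPRC, the pan-leukocyte marker, reached at most 0.0158 TPM. CD68, a lysosomal protein that many cells express, stood above control with candidate 240 ASO3 (log2 1.62 in A549 and 0.94 in NCI-H460), and its part in the members' values was not tested. The fibroblast markers were COL1A1 in both lines (1.43 to 9.62 TPM) and COL3A1 and LUM in NCI-H460 (1.82 to 4.86 TPM). AC015712.6, the RNA taken here as candidate 240 although the labels do not name it, stood at 4.44% of control with ASO3 and 53.4% with ASO1 in A549. Its A549 control level was only 0.347 TPM. In NCI-H460 it stood at 59.6% and 111%, from a control level of only 0.078 TPM, and the ASO3 libraries overlapped with control. AC107959.3, taken as candidate 42, stood at 8.55% of control with ASO3 and 45% with ASO5 in A549, and at 30.3% and 95.5% in NCI-H460. The A549 replicate 3 libraries deviated together from their group means, with r of 0.321 to 0.564 across genes between the replicate 3 library of each ASO and that of control. In NCI-H460, candidate 42 ASO3 replicate 1 stood apart from replicate 2 for several members, and member results that rest on it are given without it. This library had the fewest names above 0 of all libraries (23879) and the highest TPM sum of its line (1173905). The gene lists were not refitted without it.

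With the control ASO, the subunits of the ring differed widely in level although they stand in equal numbers in the complex. In A549 control libraries MCM7 was highest, at 228 ± 43.2 TPM (SD, n = 3), followed by MCM4 at 152 ± 19.8 and MCM5 at 97 ± 12.4. MCM3, at 77.7 ± 1.49 TPM, and MCM2, at 72.7 ± 4.05, overlapped between libraries. MCM6 was the lowest of the ring subunits, at 47.2 ± 5.05 TPM. MCMBP followed at 41 ± 2.34 TPM, MCM10 and MCM8 overlapped at 20.5 ± 3.3 and 20.2 ± 3.53, and MCM9 was lowest at 4.76 ± 0.963. In NCI-H460 MCM7 (239 ± 1.82 TPM, SD, n = 2) and MCM4 (94.1 ± 14) again led. MCM3 and MCM5 followed at 64.3 ± 1.11 and 59.3 ± 3.34 TPM. There MCM6 (56.2 ± 0.53), MCM2 (55.8 ± 0.816) and MCMBP (55.2 ± 1.43) could not be placed in order, and MCM8, MCM10 and MCM9 stood at 15.7, 12.1 and 4.2 TPM.

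Between the control libraries of the lines, 5 members were higher in A549 than in NCI-H460 and 1 was lower (limma, adjusted p under 0.05). Of 14769 genes 54.9% were called, 36.4% as higher and 18.4% as lower, and the lower ones were 33.6% of all calls, or 45.4% with median-of-ratios scaling. The higher ones were MCM10 (log2 difference 0.73, SE 0.14, adjusted p = 0.000196 by limma), MCM5 (0.70, SE 0.19), MCM4 (0.69, SE 0.20), MCM2 (0.38, SE 0.11) and MCM3 (0.27, SE 0.09). MCMBP was lower in A549, at 41 ± 2.34 against 55.2 ± 1.43 TPM (log2 difference -0.43, SE 0.09, adjusted p = 0.00051 by limma). MCM6 stood lower in A549 too, but this did not pass the test (-0.25, SE 0.12, limma adjusted p = 0.0864). The median of all genes lay at 0.21 on the same scale, so MCM3 and MCM2 were little above it, and with median-of-ratios scaling neither passed while MCM6 did (limma adjusted p = 0.00638). MCM3 was also lost without either NCI-H460 library (limma adjusted p = 0.0667 and 0.108) and MCM4 without NCI-H460 replicate 2 (0.0898), while MCM6 passed without A549 replicate 4 (0.0366) and MCM8 without A549 replicate 3 (0.0166). Line and replicate series coincide and cannot be told apart.

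With candidate 240 ASO3, MCM6 stood far below control in both lines, apart from the rest of the ring. In A549 it stood at 5.81, 4.39 and 4.78 TPM with candidate 240 ASO3, against 45.9, 52.8 and 43 TPM with the control ASO (replicates 3, 4 and 5). All 3 ASO libraries were far below each of the other 12 A549 libraries, which ranged from 43 to 56.4 TPM. The mean was 5 ± 0.732 TPM with the ASO and 47.2 ± 5.05 with control (SD, n = 3 each), or 10.6% of control, a log2 fold change of -3.12 (SE 0.11). In NCI-H460 MCM6 stood at 13.8 and 10.3 TPM with candidate 240 ASO3, against 55.8 and 56.5 TPM with the control ASO. Again both lay below every other library of the line, 8 in all with a range of 40.6 to 59.2 TPM. The mean was 12.1 ± 2.45 TPM with the ASO and 56.2 ± 0.53 with control (SD, n = 2 each), or 21.5% of control (log2 -2.19, SE 0.13). Counted from the lowest fold change, MCM6 ranked 3 of 14740 genes in A549 and 15 of 13774 in NCI-H460. Since this contrast chose the gene, these values describe it and carry no test. Bulk RNA cannot tell fewer cells in S phase from less of a transcript per cell.

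**Figure D1:**
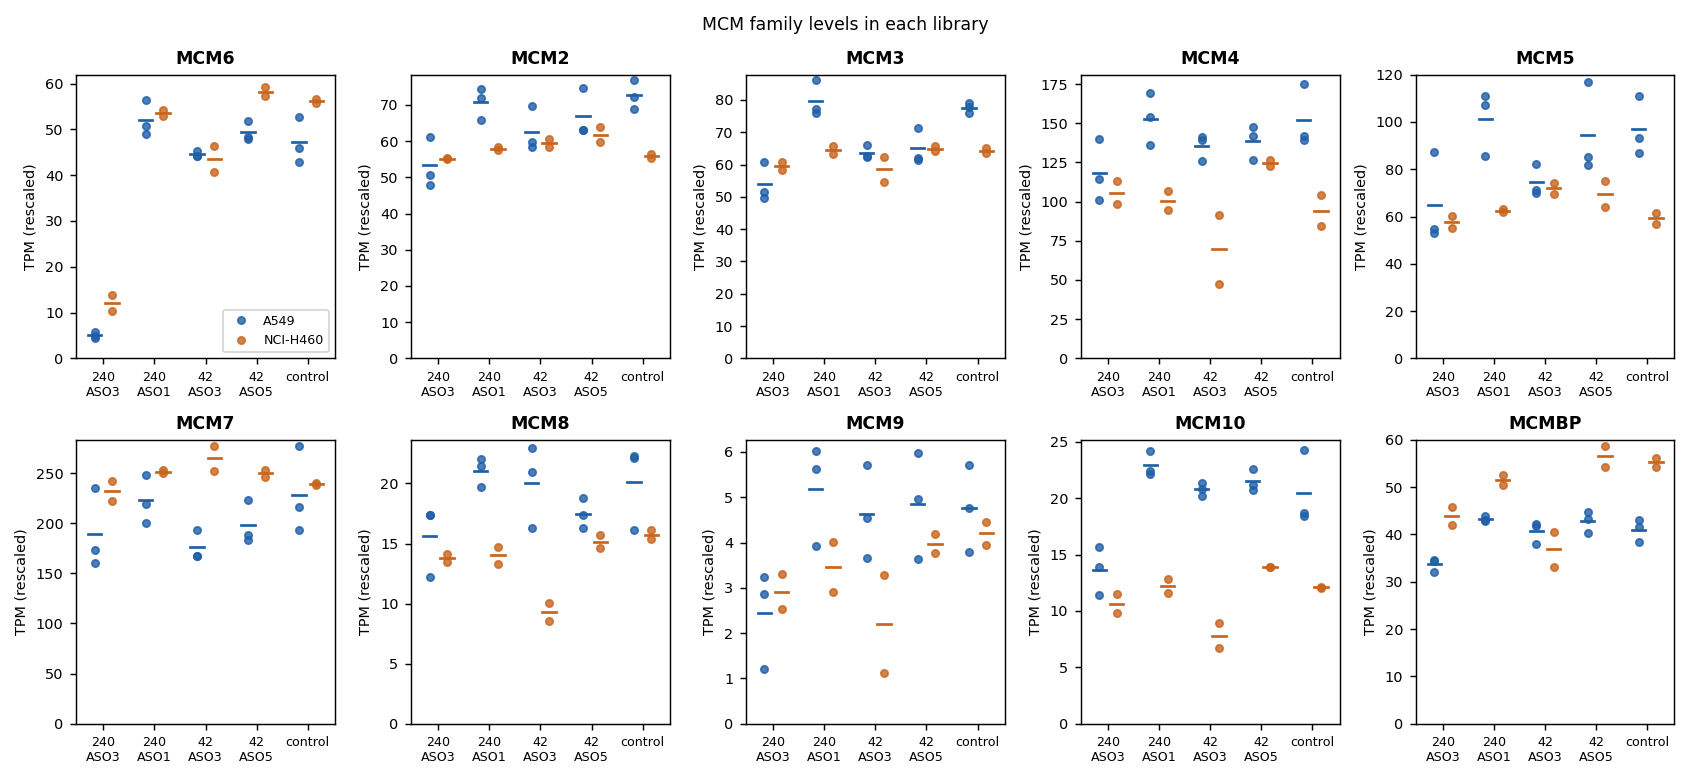
TPM of each MCM family member (y axis, from 0) in every library, by group (x axis), with A549 in blue and NCI-H460 in orange and short lines at group means. MCM6 with candidate 240 ASO3 stands at 4.39 to 5.81 TPM in A549 and 10.3 to 13.8 in NCI-H460, below every other library of its line, while MCM2, MCM3, MCM4, MCM5 and MCM7 stand much closer to the other groups.

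The partners of MCM6 in the ring were only moderately below control in A549. MCM3 stood at 60.8, 49.6 and 51.7 TPM with candidate 240 ASO3, against 79, 78 and 76 TPM with control, with no overlap (69.6% of control, log2 -0.53, SE 0.10). MCM2 stood at 61.3, 47.9 and 50.8 TPM with the ASO, against 77, 72.1 and 68.9 with control, again with no overlap (73.4%, log2 -0.45, SE 0.11). The other 3 subunits were lower in the mean but their libraries overlapped with control. MCM5 stood at 87.3, 52.9 and 54.7 TPM with the ASO, against 111, 93.1 and 87 with control (67%, log2 -0.61, SE 0.19). Its replicate 3 library was high in both groups, and in each replicate number the ASO library was the lower one. MCM4 was at 77.8% of control (log2 -0.37, SE 0.13) and MCM7 at 83% (log2 -0.27, SE 0.16). For both of these, too, the ASO library was the lower one in each replicate number. The 5 partners summed to 480 ± 74.1 TPM with the ASO and to 628 ± 79.9 with control (SD, n = 3 each).

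Outside the ring, MCM9 was the lowest relative to control in A549, at 1.2, 2.87 and 3.23 TPM with candidate 240 ASO3, against 3.79, 4.77 and 5.72 TPM with control (51.1%, log2 -0.91, SE 0.29). MCM10, the activator, stood at 11.4, 15.7 and 13.9 TPM with the ASO, against 18.7, 24.3 and 18.4 with control (66.7%, log2 -0.57, SE 0.13). Neither overlapped. MCMBP, at 33.7 ± 1.39 TPM with the ASO and 41 ± 2.34 with control (82.2%), did not overlap either, and MCM8, at 77.6% of control, did. Within each replicate number, however, the ASO library of MCM8 was the lower one, as for MCM4, MCM5 and MCM7. The share of all genes lower in each replicate number was not counted. In all, 6 of 10 members had every ASO library below every control library, a pattern seen in 13.2% of 14740 genes. Without replicate 3 in any group, the log2 fold change of MCM6 was -3.24, those of the partners ran from -0.74 (MCM5) to -0.24 (MCM4), and that of MCM9 was -0.69.

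In NCI-H460 the partners stayed close to control. MCM2 stood at 55 and 55.2 TPM with candidate 240 ASO3, against 56.4 and 55.2 TPM with control (98.8%, log2 -0.02, SE 0.08). MCM5 was at 97.4% of control, MCM7 at 97%, MCM3 at 92.6% and MCM4 at 112%. The 5 partners summed to 510 ± 9.04 TPM with the ASO and to 513 ± 14.4 with control (SD, n = 2 each). Among the other members, MCMBP stood at 45.8 and 42 TPM with the ASO, against 54.2 and 56.2 with control (79.5%, log2 -0.33, SE 0.11). MCM9 stood at 2.53 and 3.31 TPM with the ASO, against 3.96 and 4.45 with control (69.4%, log2 -0.47, SE 0.35). MCM10 was at 88.1% and MCM8 at 87.4% of control. With 2 libraries a group, 7 of 10 members had both ASO libraries below both control libraries, beside 32.5% of 13774 genes. MCM2 is among these 7 although its means differed by less than the SD of its control libraries.

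MCM6 made up a much smaller share of the ring transcripts with this ASO. Of the summed TPM of MCM2 to MCM7, MCM6 was 1.03% ± 0.0251 in A549 with candidate 240 ASO3 and 7.05% ± 1.05 with control (SD, n = 3 each), and it was 6% to 8.44% over all 12 other A549 libraries. In NCI-H460 its share was 2.31% ± 0.498 with the ASO and 9.88% ± 0.335 with control (SD, n = 2 each), and 7.32% to 10.1% over the 8 other libraries. A share within a library does not depend on how libraries were scaled against each other.

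**Figure D2:**
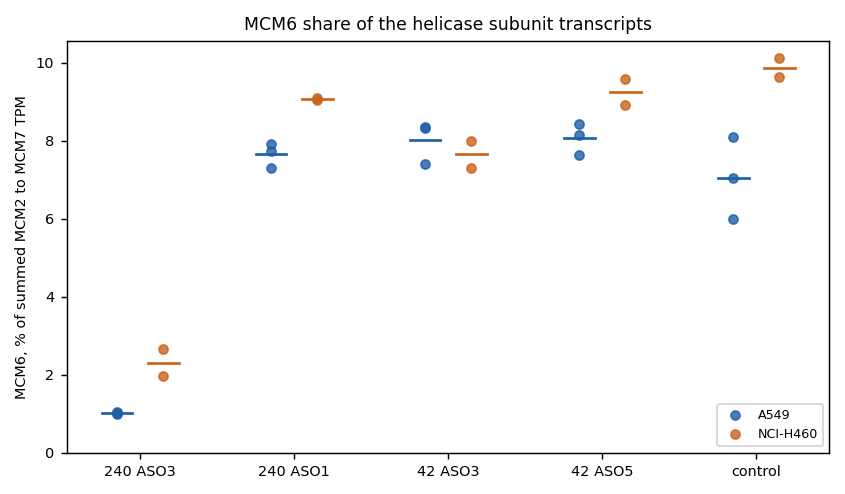
Share of MCM6 in the summed TPM of MCM2 to MCM7 (y axis, percent, from 0) in each library by group (x axis), with A549 in blue, NCI-H460 in orange and short lines at group means. With candidate 240 ASO3 the share is 1.03% on average in A549 and 2.31% in NCI-H460, and in every other library it is at least 6%.

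The loss of MCM6 was not seen with the second ASO against the same candidate. AC015712.6, taken here as candidate 240, stood at 53.4% of control with this ASO in A549 and at 111% in NCI-H460. With ASO3 it stood at 4.44% and 59.6%, and its control levels were low in both lines. With candidate 240 ASO1, MCM6 stood at 56.4, 49 and 50.7 TPM in A549, against 45.9, 52.8 and 43 with control, and the groups overlapped (log2 0.14, SE 0.11, limma adjusted p = 1). In NCI-H460 it stood at 54.3 and 52.8 TPM with the ASO, against 55.8 and 56.5 with control, with no overlap but within the error of the fit (log2 -0.07, SE 0.13, limma adjusted p = 0.945). No member was called by limma with this ASO in either line, where 0% of the genes tested were called. At an unadjusted p under 0.05, 267 of 14740 genes passed in A549 and 493 of 13774 in NCI-H460. Log2 fold changes of the 10 members ran from -0.04 (MCM2) to 0.17 (MCM10) in A549 and from -0.26 (MCM9) to 0.10 (MCM4) in NCI-H460. Both ASOs of a candidate are compared with the same control libraries.

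No member was called with candidate 42 ASO3 in A549 (limma, adjusted p under 0.05), where 10.1% of 14740 genes were called. MCM6 stood at 44.2, 44.3 and 45.4 TPM with the ASO, against 45.9, 52.8 and 43 with control (log2 -0.08, SE 0.11, limma adjusted p = 0.744). The ring partners had values below control. MCM3 came closest to the threshold, at 66.2, 62.2 and 62.5 TPM with the ASO, against 79, 78 and 76 TPM with control (log2 -0.29, SE 0.10, limma adjusted p = 0.0838). MCM5 stood at 74.5 ± 6.83 TPM with the ASO and 97 ± 12.4 with control (log2 -0.38, SE 0.19, limma adjusted p = 0.258). With the A549 replicate 3 libraries left out, MCM2, MCM3, MCM5 and MCM7 passed, at limma adjusted p of 0.00612 (MCM3) to 0.0368 (MCM5). That alternative was chosen after the data were seen, and the share of all genes called in it was not counted. In the authors' deposited table for this comparison, q-values of 2 members were under 0.05, MCM5 (log2 -0.38, q 0.0393) and MCM7 (log2 -0.37, q 0.0414). How many of all genes were under that q-value was not counted here.

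With candidate 42 ASO5 in A549 no member was called by limma either, beside 3.82% of the genes. MCM3 had the lowest value, 71.4, 61.5 and 62.1 TPM with the ASO, against 79, 78 and 76 with control (log2 -0.26, SE 0.10, limma adjusted p = 0.183). MCM6 stood at 49.4 ± 2.2 TPM with the ASO and 47.2 ± 5.05 with control (SD, n = 3 each). Candidate 42 ASO5 set directly against candidate 42 ASO3 gave no called member in A549, beside 10.7% of genes. MCM5 differed most there, at 94.7 ± 19.3 TPM with ASO5 and 74.5 ± 6.83 with ASO3 (log2 0.33, SE 0.19, limma adjusted p = 0.326). Replicate numbers pair the libraries in this comparison, and with the replicate block MCM5 passed at a limma adjusted p of 0.0475.

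In NCI-H460, 4 members fell with candidate 42 ASO3 (limma, adjusted p under 0.05), MCM8, MCMBP, MCM10 and MCM6. In this comparison 46% of 13774 genes were called, 32.8% as lower and 13.2% as higher, so the members' share is near that of all genes. MCM8, the recombination helicase subunit, stood at 8.56 and 10 TPM with the ASO, against 15.3 and 16.1 TPM with control (59.1%, log2 -0.73, SE 0.12, limma adjusted p = 0.00157). MCMBP stood at 33.2 and 40.5 TPM with the ASO, against 54.2 and 56.2 with control (66.8%, log2 -0.58, SE 0.11, limma adjusted p = 0.00335). In neither gene did the groups overlap. MCM10 stood at 6.7 and 8.93 TPM with the ASO, against 12 and 12.2 with control (64.6%, log2 -0.61, SE 0.15, limma adjusted p = 0.00962). MCM6 stood at 40.6 and 46.4 TPM with the ASO, against 55.8 and 56.5 with control (77.5%, log2 -0.37, SE 0.13, limma adjusted p = 0.0471). The median of all genes was -0.20 in this comparison, and relative to it MCM6 lay 0.17 lower on the log2 scale. The call of MCM6 held in 4 of 13 alternative settings and was lost without any 1 of control replicate 1, control replicate 2 or ASO replicate 1 (limma adjusted p = 0.133, 0.159 and 0.203). That of MCM10 was lost without control replicate 2 (limma adjusted p = 0.0538).

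The other ring subunits were split with candidate 42 ASO3 in NCI-H460. MCM2, MCM5 and MCM7 had values above control, while MCM3 and MCM4, like MCM6, had values below it. None of these partners was called in the main limma fit. MCM5 stood at 74 and 69.7 TPM with candidate 42 ASO3, against 56.9 and 61.7 with control (121%, log2 0.28, SE 0.10, limma adjusted p = 0.0542). MCM2 was at 107% of control and MCM7 at 111%, and MCM3 was at 91.1%. MCM4 stood at 47.7 TPM in replicate 1 and 91.4 in replicate 2 with the ASO, against 104 and 84.2 with control (log2 -0.50, SE 0.25, limma adjusted p = 0.13). MCM9 split in the same way, with 1.12 and 3.29 TPM with the ASO, against 3.96 and 4.45 with control (log2 -0.92, SE 0.35, limma adjusted p = 0.0574). In both genes replicate 1 was the low library. Without ASO replicate 1, MCM8 (log2 -0.62, limma adjusted p = 0.00689), MCMBP (-0.44, 0.012) and MCM10 (-0.42, 0.0453) still passed, MCM6 did not, and MCM4 stood at -0.03. Without ASO replicate 2, which leaves 1 ASO library, log2 fold changes were -0.23 for MCM3, -0.96 for MCM4, 0.32 for MCM5 and -1.54 for MCM9. Scaled by the median of ratios, 3 members passed as higher, MCM5 (log2 0.47), MCM7 (0.34) and MCM2 (0.28), and 3 as lower, MCM8 (-0.55), MCM10 (-0.43) and MCMBP (-0.39), each by limma. Over all genes, 71.3% of calls were lower with the values as deposited and 51.8% with that scaling. In the authors' deposited table, q-values of 8 members were under 0.05. The share of all genes under that q-value was not counted here, so the 8 cannot be set beside it.

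With candidate 42 ASO5 in NCI-H460 no member was called by limma, beside 0.508% of genes. MCM6 stood at 57.2 and 59.2 TPM with the ASO, against 55.8 and 56.5 with control, slightly higher with no overlap (log2 0.05, SE 0.13, limma adjusted p = 0.899). Set directly against candidate 42 ASO3, candidate 42 ASO5 had 5 members higher by limma, beside 33.3% of genes called in either direction and 27.7% called higher. Of those calls 16.9% were lower with the values as deposited and 45.9% with median-of-ratios scaling. MCM10 stood at 13.8 and 13.9 TPM with ASO5, against 6.7 and 8.93 TPM with ASO3 (log2 0.80, SE 0.15, limma adjusted p = 0.00451). MCM8 (log2 0.68, SE 0.12) and MCMBP (0.62, SE 0.11) were also higher, with no overlap and with adjusted p under 0.05 by limma in each of 13 alternatives. MCM4 (0.91, SE 0.25, limma adjusted p = 0.0224) and MCM6 (0.42, SE 0.13, limma adjusted p = 0.038) held in 7 and 6 of those 13, and both were lost without ASO3 replicate 1 or either ASO5 library (limma adjusted p of 0.0657 to 0.168). The median of all genes was 0.21. With median-of-ratios scaling, MCM8, MCM10 and MCMBP were called higher and MCM7 lower.

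The response to candidate 42 ASO3 differed between the lines in 3 members by the limma interaction test, in which 19.7% of 14769 genes were called, 15.5% with a higher value in A549. Calls with a lower value in A549 were 21.4% of all calls, and 53.7% with median-of-ratios scaling. Expressed as the A549 response minus the NCI-H460 response, the log2 difference was 0.73 (SE 0.23, limma adjusted p = 0.0364) for MCM8, 0.64 (SE 0.20, 0.0311) for MCM10 and 0.57 (SE 0.13, 0.0081) for MCMBP. The log2 fold changes behind it were -0.01 in A549 and -0.73 in NCI-H460 for MCM8, 0.03 and -0.61 for MCM10, and -0.01 and -0.58 for MCMBP. That of MCM6 was not called (0.29, SE 0.17, limma adjusted p = 0.225). With median-of-ratios scaling MCMBP still passed as higher (0.35, limma adjusted p = 0.0497), MCM8 (0.51) and MCM10 (0.43) did not, and MCM2 (-0.54), MCM5 (-0.88) and MCM7 (-0.74) passed as lower in A549. Of the 19 alternatives, MCMBP held in 17, MCM8 in 9 and MCM10 in 8, and all 3 were lost without NCI-H460 candidate 42 ASO3 replicate 1. MCM8 and MCM10 were also lost without A549 control replicate 3, A549 candidate 42 ASO3 replicate 4 or 5, or either NCI-H460 control library, and MCM10 without A549 control replicate 5 (limma adjusted p of 0.0503 to 0.223 in all). No member was called in the interaction of candidate 42 ASO5 (0.0339% of genes) or of candidate 240 ASO1 (0% of genes, with 410 of 14769 at an unadjusted p under 0.05).

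**Figure D3:**
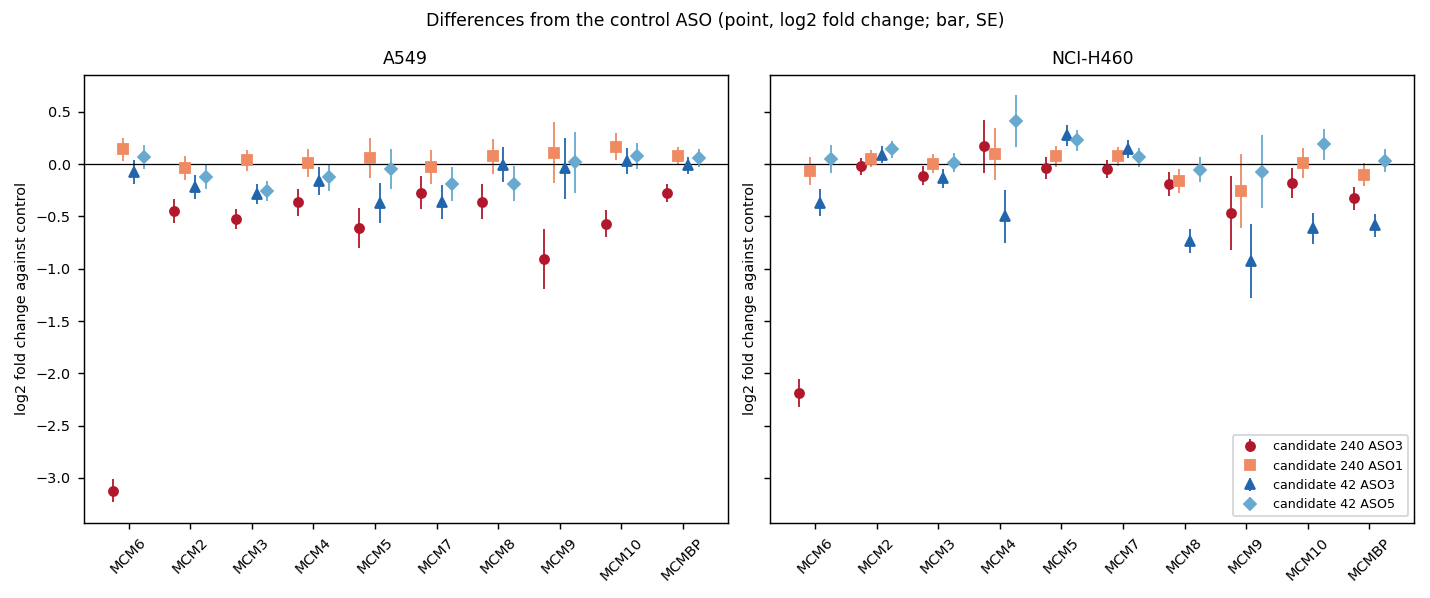
Log2 fold change against control of each member (y axis) for the 4 ASOs in A549 (left) and NCI-H460 (right), with bars of 1 SE and all ASOs of a line set against the same control libraries. MCM6 with candidate 240 ASO3 lies at -3.12 in A549 and -2.19 in NCI-H460, while the next lowest point in either panel is MCM9, at -0.91 with candidate 240 ASO3 in A549 and -0.92 with candidate 42 ASO3 in NCI-H460.

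Set beside each other over all 10 groups, MCM6 levels formed a low pair and a close-set remainder. The A549 candidate 240 ASO3 group was lowest (5 ± 0.732 TPM), followed with no overlap by NCI-H460 candidate 240 ASO3 (12.1 ± 2.45). Next came NCI-H460 candidate 42 ASO3 (43.5 ± 4.1 TPM), A549 candidate 42 ASO3 (44.6 ± 0.667), A549 control (47.2 ± 5.05), A549 candidate 42 ASO5 (49.4 ± 2.2), A549 candidate 240 ASO1 (52 ± 3.9) and NCI-H460 candidate 240 ASO1 (53.6 ± 1.05). Each of these overlapped with its neighbour. NCI-H460 control (56.2 ± 0.53 TPM) and NCI-H460 candidate 42 ASO5 (58.2 ± 1.45) stood highest, each clear of the group just below it by the range of its libraries. However, A549 candidate 240 ASO1 reached 56.4 TPM, within the NCI-H460 control range of 55.8 to 56.5.

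Outside the candidate 240 ASO3 groups, the fold changes of MCM6 lay about as near to those of its ring partners as the fold changes of MCM4 did. Likeness was measured as the root mean square difference of log2 fold changes over the 8 ASO groups from the mean of MCM2, MCM3, MCM4, MCM5 and MCM7, a mean that these 5 genes help to form. MCM2 differed from it by 0.0519, MCM3 by 0.0938, MCM7 by 0.101, MCM5 by 0.134 and MCM4 by 0.205. MCM10, MCMBP, MCM8 and MCM9 differed by 0.266, 0.276, 0.301 and 0.432. MCM6 differed by 1.23 (rank 12651 of 12760 genes from the most alike), a value that the candidate 240 ASO3 groups, which chose the gene, fix in advance. Over the 6 other ASO groups, an alternative chosen after the data were seen, MCM6 differed by 0.206 (rank 2263 of 12760) and MCM4 by 0.223, while MCM2, MCM7, MCM3 and MCM5 differed by 0.0598, 0.0918, 0.0942 and 0.139. There MCMBP, MCM10, MCM8 and MCM9 differed by 0.282, 0.295, 0.337 and 0.422. Outside the family, AKIRIN2 (0.0489), TUBB (0.0573), TKT (0.064) and MED28 (0.08) were among the genes nearest to the partner mean. TUBB, a beta-tubulin, averaged 566 ± 94.4 TPM with candidate 240 ASO3 and 757 ± 119 with control in A549 (SD, n = 3 each).

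Over all 8 groups, and so mostly by their candidate 240 ASO3 values, the genes most like MCM6 itself were NFIC (0.302), NR3C1 (0.307), XRCC4 (0.37), COQ8B (0.379) and CAP2 (0.396), on the same measure. With candidate 240 ASO3 their log2 fold changes ran from -3.18 (NR3C1) to -2.56 (XRCC4) in A549 and from -2.25 (CAP2) to -1.63 (XRCC4) in NCI-H460. XRCC4, a factor of DNA end joining, averaged 1.31 ± 0.148 TPM with candidate 240 ASO3 and 10.2 ± 0.607 with control in A549 (SD, n = 3 each). NR3C1, the glucocorticoid receptor, averaged 2.54 ± 1.02 TPM with the ASO and 27.4 ± 10.3 with control in A549. With candidate 42 ASO3 in NCI-H460 these 5 stood at log2 -1.08 (NFIC), -1.08 (NR3C1), -0.73 (XRCC4), -0.30 (COQ8B) and -1.38 (CAP2), beside -0.37 for MCM6.

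Across the replication genes around the helicase, candidate 240 ASO3 values in A549 leaned below control, with MCM6 and POLA1 far from the rest. POLA1, the catalytic subunit of DNA polymerase alpha, averaged 3.11 ± 0.314 TPM with the ASO and 12.4 ± 1.59 with control in A549 (log2 -1.84, SE 0.12; SD, n = 3 each). In NCI-H460 it averaged 7.1 ± 1.24 TPM with the ASO and 16.4 ± 0.804 with control (log2 -1.16, SE 0.15; SD, n = 2 each). Of 26 replication fork genes in A549, 9 had every library below control and 1 above, beside 13.2% and 12.2% of all genes (median log2 -0.22), the other named ones being POLD3 (-0.56), POLE (-0.56) and POLD4 (0.51). Of 14 genes of helicase activation, 5 were below (median -0.31), among them GINS4 (-1.10), CDC45 (-0.61) and GINS1 (-0.61), partners of the MCM ring in the active helicase, and DBF4B (-0.43). Of 9 genes of origin recognition and licensing 1 was below, ORC6 (-0.39). Of 11 recombination genes 1 was below, XRCC3 (-0.56). Of 15 E2F and RB genes 4 were below, led by E2F8 (-0.64), E2F1 (-0.57) and E2F2 (-0.49), and 1 was above, E2F6 (0.45). The median of all 14740 genes was -0.01.

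Proliferation markers also leaned below control in A549. All 6 had a log2 fold change below 0 with candidate 240 ASO3, 5 of them with no overlap (median -0.47), beside 13.2% of all genes. MKI67 averaged 24 ± 2.2 TPM with the ASO and 35.8 ± 3.56 with control (SD, n = 3 each). The summed level of the 6 markers ran from 411 to 693 TPM over all A549 libraries, and its part in the members' values was not tested. In NCI-H460 3 of the 6 were below with no overlap (median -0.13), beside 32.5% of all genes. There the 5 ring partners of MCM6 stood at 92.6% to 112% of control.

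**Figure D4:**
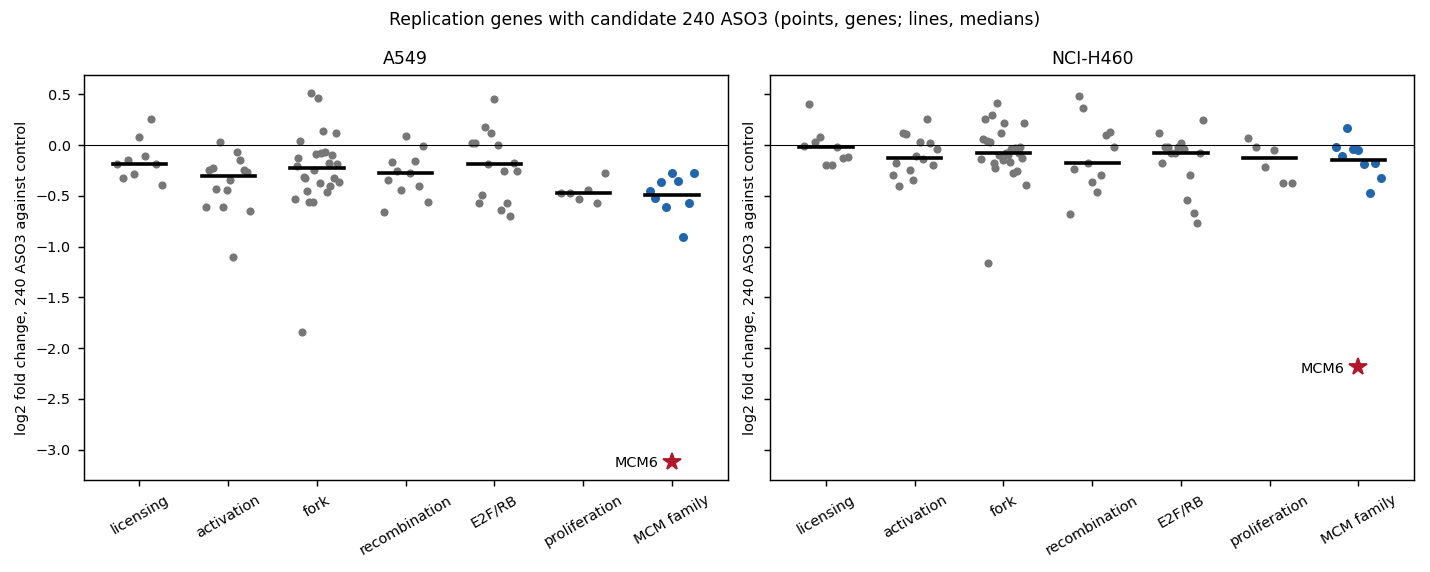
Log2 fold change with candidate 240 ASO3 against control (y axis) of each gene in 6 lists of replication and proliferation genes and of the MCM family, in A549 (left) and NCI-H460 (right), with black lines at list medians. MCM6 (red star) lies at -3.12 and -2.19, POLA1 is the next lowest at -1.84 and -1.16, and the other 9 members lie between -0.91 and 0.17.

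In NCI-H460 the same lists had medians nearer to 0 with candidate 240 ASO3, where 32.5% of all genes had no overlap as lower and 28% as higher. Medians were -0.01 for licensing, -0.12 for activation, -0.08 for the fork, -0.18 for recombination and -0.08 for E2F and RB genes, beside -0.03 for all 13774 genes. CDT1, the licensing factor that brings MCM2 to MCM7 to origins, stood above control (log2 0.41, SE 0.13). DBF4 (-0.40) and GINS2 (-0.35) stood below it, as did the RB relatives RBL2 (-0.77) and RBL1 (-0.67). Recombination genes were split, with BARD1 at -0.68 and BRCA2 at 0.48.

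Tested with the other ASOs, the replication lists had most calls with candidate 42 ASO3 in NCI-H460, where 32.8% of all genes were called lower and 13.2% higher. There 10 of 15 E2F and RB genes fell, led by RBL2 (log2 -1.44), E2F7 (-1.20), RBL1 (-1.16) and RB1 (-1.15), each by limma. Of 14 activation genes 8 fell and 1 rose, including MTBP (-1.05), DBF4 (-0.98), WDHD1 (-0.92) and GINS4 (-0.73). Of 11 recombination genes 5 fell and 1 rose, including BARD1 (-1.23) and NBN (-1.05), and of 26 fork genes 7 fell and 1 rose, including PRIM2 (-0.90) and RFC3 (-0.75). Of 9 licensing genes 3 fell, ORC4 (-0.87), ORC3 (-0.61) and ORC2 (-0.53), and CDT1 rose (0.43). Medians were -0.69, -0.41, -0.16, -0.16 and -0.19, in the order of these lists, beside -0.20 for all genes, so the recombination, fork and licensing lists lay close to all genes. Of the 6 proliferation markers 3 fell, led by CDK1 (-0.52) and TOP2A (-0.46). All these list counts include the outlying ASO replicate 1, and were not repeated without it or with other scaling. With the same ASO 3 of 26 fork genes fell in A549, where 6.63% of all genes were called lower, POLA2 (log2 -0.72, limma adjusted p = 0.0375), RFC4 (-0.52, 0.0139) and POLA1 (-0.51, 0.0154), and no gene of the other 4 replication lists was called by limma. With candidate 42 ASO5 only POLA1 of the fork genes fell in A549 (log2 -0.57, SE 0.12, limma adjusted p = 0.0193), beside 2.4% of all genes, and none was called in NCI-H460. Candidate 240 ASO1 had no call in any list in either line.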

How the data were processed

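RNA of 25 libraries was analysed. The submitters' processing notes name kallisto, sleuth 0.30 and genome build hg38. The sources used here give neither an annotation release nor the strand setting. The authors deposited a signal per gene name and library, TPM values whose sums run from 924350 to 1179224, so they appear rescaled between libraries, and depth is unknown. Per the file headers, the authors' own comparisons give each gene's log2 fold change with its q-value. They were used only where named.

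With R 4.3.3 and limma 3.58.1, log2(TPM + 0.5) was fitted, for genes averaging 1 TPM or more, with 1 mean per group (14740 genes in A549, 13774 in NCI-H460, and 14769 in a model of both lines for comparisons between them), with eBayes and a trend. The pseudocount understates fold changes of low genes. All tests were two-sided and p-values were adjusted over all genes (Benjamini-Hochberg), with calls at 0.05. The design had assumed plain TPM, and the rescaled values were tested in the same way. The steps were tested on simulated data.

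The members, gene lists and tests were chosen with earlier results of these data known, so no count over the members stands as independent support. All members are named. From each list up to 4 genes are named, those with the largest absolute log2 fold change among the called ones (with candidate 240 ASO3, among those without overlap), and the 5 genes nearest in likeness, of which 1 is not reported here. Replicate numbers pair libraries in A549 for candidate 240 ASO1 against control (r of 0.41, 0.20 and 0.17 across genes), candidate 240 ASO3 against control (0.56, 0.28 and 0.30) and candidate 42 ASO5 against ASO3 (0.41, 0.18 and 0.13), since every pair exceeds 0.1. The alternatives changed the pseudocount, filter, scaling, trend, groups fitted, replicate block and libraries.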

Additional observations from a re-analysis of the deposited data

Results flagged for a closer look

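The response of 3 members to candidate 42 ASO3 differed between the lines by the limma interaction test, in which 19.7% of 14769 genes were called. The log2 fold change in A549 minus that in NCI-H460 was 0.73 for MCM8 (SE 0.23, limma adjusted p = 0.0364), 0.64 for MCM10 (SE 0.20, limma adjusted p = 0.0311) and 0.57 for MCMBP (SE 0.13, limma adjusted p = 0.0081). In NCI-H460 each of the 2 ASO libraries was below both control libraries for all 3 genes, and in A549 the 3 ASO libraries overlapped with control. The share of all genes with that pattern is not given here. MCMBP held in 17 of 19 alternatives, MCM8 in 9 and MCM10 in 8. With median-of-ratios scaling MCM8 and MCM10 were lost. Without NCI-H460 candidate 42 ASO3 replicate 1 no member was called in this interaction.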

How the results depend on the processing

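No called value of a member changed sign under any alternative run. Candidate 42 ASO3 in A549, with 0 members called, gave 2 with libraries rescaled to a sum of 1e+06 (MCM3 and MCM7), 4 with the replicate block and 4 with A549 replicates 4 and 5 alone, an alternative chosen after seeing the data. The last 2 named the same 4 genes, MCM2, MCM3, MCM5 and MCM7. Candidate 42 ASO5 in A549 went to 1 with the replicate block (MCM3) and 2 with replicates 4 and 5 alone (MCM3 and MCM8), and ASO5 against ASO3 in A549 to 1 with each (MCM5 and MCM8). Under the rule that every r exceed 0.1, the A549 numbers were not taken to pair libraries for either candidate 42 ASO against control. Their lowest r across genes were 0.09 (ASO3) and 0.02 (ASO5), although replicate 3 gave 0.39 and 0.32. That cut was a choice, so shared variation between libraries of a number is not excluded there. NCI-H460 has only 2 numbers. In NCI-H460, candidate 42 ASO3 went to 2 of 4 members with only the groups compared (2 to 8 without 1 library), and ASO5 against ASO3 to 3 of 5 with no filter or only the groups compared (3 to 7). The control libraries of the lines gave 4 to 7 without 1 library. The interaction of candidate 42 ASO3 went from 3 to 1 with no filter, 1 with the sum of 1e+06, 0 with only the groups compared and 7 with the replicate block (0 to 5 without 1 library), while the 4 with median-of-ratios scaling hold MCM2, MCM5 and MCM7 as lower in A549. The causes were not tested. In NCI-H460 the block exchanged MCM6 for MCM9 with candidate 42 ASO3 (still 4) and added MCM9 to ASO5 against ASO3 (6), and it left the other counts at 0. No block could be fitted between the lines' controls. Leaving out 1 of 2 libraries assumes the lone one varies like the other groups.

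Over all genes, candidate 42 ASO3 in A549 gave 1482 calls, against 3112 with the replicate block and 738 with only the groups compared. For candidate 42 ASO5 in A549 these were 563, 1533 and 110, and 5, 39 and 0 for its interaction. ASO5 against ASO3 gave 1570, or 3152 with the block, in A549. In NCI-H460 candidate 42 ASO3 gave 6332 calls, or 4090 with only the groups compared, and ASO5 against ASO3 4588 or 1784. The interaction of candidate 42 ASO3 gave 2909, 5638 with the block and 843 with only the groups compared. TPM without depth gives no detection limit.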
